A study of Mus musculus with 20 samples.

Results

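The 40 genes described here encode the urea cycle and the enzymes that break down amino acids in liver. They were taken from a written list, out of 21887 protein-coding genes of the annotation. The chromatin near them was followed in fasted mouse liver by chromatin immunoprecipitation and sequencing (ChIP-seq) of histone marks. The marks were H3K27ac, an acetylation found at active promoters and enhancers, H3K4me1, a methylation typical of enhancers, and H3K9ac, a promoter-rich acetylation. All animals were male C57BL/6 mice, 9 weeks old, fasted for 24 h, and flash-frozen whole liver was used. Wild-type mice (WT) were compared with Cpt2 KO mice, which lack Cpt2 in liver (Cpt2 L-/-). Ppara KO mice lack Ppara (Ppara -/-), and double knockout mice (DKO) lack both. Cpt2 is the carnitine palmitoyltransferase that lets mitochondria oxidise long-chain fatty acids, and Ppara is the nuclear receptor that switches on fatty acid oxidation in fasting. H3K27ac and H3K4me1 were each measured in 2 livers of each of the 4 genotypes. H3K9ac was measured in 1 WT and 1 Cpt2 KO liver. The labels do not say how Cpt2 was removed in liver.

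During a fast the liver receives amino acids from muscle, takes off their nitrogen as ammonia or glutamate, and turns their carbon into glucose and ketone bodies. The nitrogen enters the urea cycle, which starts in mitochondria and ends in the cytosol with the release of urea by arginase. Much of this machinery is concentrated in the hepatocytes around the portal vein. Transcription of these enzymes is known to respond to glucagon, glucocorticoids and the supply of amino acids.

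Every one of the 40 genes had at least 1 H3K27ac interval with its midpoint in the gene or within 10 kb of it. An interval is a region of the authors' consensus list for a mark. Of 312 such intervals, 82 were called as peaks in all 8 libraries and could be tested, and they belonged to 39 genes. Gpt, the cytosolic alanine aminotransferase, had none. For H3K4me1 the numbers were 431 intervals, 112 of them called in all 8 libraries, at 37 genes. Otc, Arg1 and Prodh2 had no H3K4me1 interval called in all 8. The measure at an interval is the fold enrichment of its highest peak, as deposited, which ran from 2.69 to 47.8 for H3K27ac and from 2.83 to 20.3 for H3K4me1. The tested H3K27ac intervals of the listed genes were long, with a median of 3859.5 bases against 1981 bases for all 18281 tested intervals. They were also strong, with 54 of 82 (65.9%) above the median level of all tested intervals and 18 (22.0%) in the top 10%. The longest, at Mat1a, the methionine adenosyltransferase of hepatocytes, spanned 31758 bases. For H3K4me1, 64 of 112 (57.1%) lay above the median of all 19526 tested intervals. Neighbouring genes shared intervals. Sds and Sdsl lie side by side on chromosome 5, and so do Hal and Amdhd1 on chromosome 10, and 5 of the 82 H3K27ac intervals were counted for 2 listed genes. Another 9 of the 82 held the start of a gene outside the list.

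Libraries of a mark were close in size, with 44454 to 48929 H3K27ac peaks and 61189 to 72151 H3K4me1 peaks per library. The files give no read depth, so the depth behind each fold is unknown. The H3K27ac libraries of Cpt2-null livers (Cpt2 KO and DKO) had higher folds in general. Their median fold over the tested intervals was 11.8 to 14.0, against 9.9 to 11.4 in Cpt2-intact livers (WT and Ppara KO). Tests were run on log2 folds centred on each library's median, and each difference below is relative to that median. The shortest peak of the H3K27ac libraries also differed, at 217 to 223 bases in Cpt2-null libraries and 198 to 210 bases in Cpt2-intact ones. The H3K4me1 libraries split in another way. Cpt2 KO replicate 1, Ppara KO replicate 2 and both DKO libraries covered 38.8 to 46.0 Mb with a shortest peak of 210 to 221 bases. The other 4 covered 52.5 to 53.5 Mb with a shortest peak of 196 to 200 bases. The peak names carry 8 different animal numbers, the same 8 for both marks. Ppara-null and Ppara-intact animals come from separate number series, so the series and the loss of Ppara cannot be told apart. The deleted genes were a partial check of the labels: among 26 H3K27ac intervals near Ppara, 1 was called in all 4 Ppara-intact livers and in no Ppara-null liver, 1 showed the opposite, and 7 were called in all 8 libraries. Among 5 near Cpt2, 1 was called in all 4 Cpt2-intact livers and in no Cpt2-null liver. In whole liver, fewer cells with a mark and less of the mark per cell cannot be told apart.

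The start site was marked in each gene where it could be checked. RefSeq promoter entries matched 30 of the 40 genes, and in all 30 a start lay inside an H3K27ac interval called in all 8 libraries, against 2 for H3K4me1. The share among all promoters is not given here, so these counts do not set the listed genes apart. Gls2, Asl, Gpt, Kynu, Mat1a, Cth, Sdsl, Cps1, Sds and Arg1 had no matched entry. The 250 bases before the start are shown for 6 genes whose start interval was called in a test below, from RefSeq on GRCm38.p6 (mm10). Capitals mark matches to the motifs searched on both strands: AGGTCA (bound by many nuclear receptors), TGACG (part of the cyclic AMP response element), AGAACA (part of the glucocorticoid receptor site), TTGCNNAA (C/EBP) and GTTAAT (part of the HNF1 site).
Prodh2, chr7:30493408-30493657, plus strand: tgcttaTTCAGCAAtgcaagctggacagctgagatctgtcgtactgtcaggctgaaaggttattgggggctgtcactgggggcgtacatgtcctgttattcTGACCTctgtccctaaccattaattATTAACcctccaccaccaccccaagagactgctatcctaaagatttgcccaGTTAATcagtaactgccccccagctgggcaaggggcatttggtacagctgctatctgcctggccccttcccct
Got1, chr19:43524606-43524855, minus strand: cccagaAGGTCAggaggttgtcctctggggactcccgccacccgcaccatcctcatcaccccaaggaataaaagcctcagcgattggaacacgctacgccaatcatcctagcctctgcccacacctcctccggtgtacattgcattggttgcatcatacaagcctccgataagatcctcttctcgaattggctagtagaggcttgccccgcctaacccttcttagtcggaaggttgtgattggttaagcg
Agxt2, chr15:10358283-10358532, plus strand: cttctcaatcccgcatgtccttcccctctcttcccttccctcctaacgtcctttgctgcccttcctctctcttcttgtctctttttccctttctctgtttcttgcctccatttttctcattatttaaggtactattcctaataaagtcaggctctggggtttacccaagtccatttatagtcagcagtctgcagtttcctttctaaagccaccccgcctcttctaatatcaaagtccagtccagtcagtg
Glud1, chr14:34310477-34310726, plus strand: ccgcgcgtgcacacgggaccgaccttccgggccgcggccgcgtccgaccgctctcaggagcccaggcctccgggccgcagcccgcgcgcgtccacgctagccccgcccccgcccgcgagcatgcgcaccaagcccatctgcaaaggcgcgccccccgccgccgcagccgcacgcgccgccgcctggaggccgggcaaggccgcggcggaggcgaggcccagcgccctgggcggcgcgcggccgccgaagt
Bhmt, chr13:93637759-93638008, minus strand: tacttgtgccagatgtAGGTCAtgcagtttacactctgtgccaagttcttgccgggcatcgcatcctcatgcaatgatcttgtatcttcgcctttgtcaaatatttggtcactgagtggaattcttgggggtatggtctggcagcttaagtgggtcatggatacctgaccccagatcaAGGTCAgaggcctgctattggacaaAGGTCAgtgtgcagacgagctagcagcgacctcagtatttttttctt
Nags, chr11:102145263-102145512, plus strand: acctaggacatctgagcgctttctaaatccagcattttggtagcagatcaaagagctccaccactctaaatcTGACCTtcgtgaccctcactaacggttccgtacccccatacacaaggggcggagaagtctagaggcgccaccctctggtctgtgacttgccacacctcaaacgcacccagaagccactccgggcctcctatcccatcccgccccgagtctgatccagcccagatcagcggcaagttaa
Bhmt held AGGTCA 234, 72 and 47 bases before the start, and Got1 held it 244 bases before. Nags held its reverse complement 178 bases before the start. Prodh2 held that reverse complement at 149 bases, ATTAAC and GTTAAT at 124 and 73 bases, and a C/EBP match at 244 bases. Neither Agxt2 nor Glud1 held any of these letters in the printed window, and the Glud1 window was 82% G and C. Over the 33 promoters of listed genes, each taken as the 250 bases before the start, AGGTCA was found in 12 (36.4%), against 14.0% of 32851 promoters. TGACG was found in 2 (6.06%) against 17.8%, AGAACA in 3 (9.09%) against 16.1%, TTGCNNAA in 3 (9.09%) against 9.56%, and GTTAAT in 5 (15.2%) against 6.43%. The full nuclear receptor repeat AGGTCANAGGTCA was found in none, against 0.0335% of all promoters, and TGACGTCA in none against 1.55%. These matches describe letters and not bound sites.

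The first comparison asked which of these genes differed with the state of Ppara, setting the 4 Ppara-null livers (Ppara KO and DKO) against the 4 Ppara-intact ones (WT and Cpt2 KO). H3K27ac was higher without Ppara at 7 genes (Agxt2, Cps1, Gls2, Got1, Sds, Sdsl and Tdo2) and lower at 3 (Bckdha, Glud1 and Prodh2). By interval, 9 of 82 were higher and 3 lower at an adjusted p under 0.05. Over all 18281 tested intervals the background was 7.34% called, 3.19% higher and 4.15% lower. The median difference over the 82 was 0.09 on the log2 scale, against -0.01 over all, and 53 of 82 were positive. With gene means, the average over a gene's tested intervals, Agxt2, Sds and Sdsl were higher and Prodh2 lower among 39 genes, against 4.89% of all 11264 genes called, 1.25% higher and 3.64% lower. The count of 12 called intervals fell to 7 without WT replicate 2, to 4 without Cpt2 KO replicate 2, to 5 without Ppara KO replicate 1, and to 7 and 6 without DKO replicates 1 and 2. Leaving out a library also removes a liver from the test. The share over all intervals in such fits is not given here or below, so these counts do not set the listed genes apart.

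For serine and glyoxylate genes, all 8 tested intervals were positive and 5 were called higher, with a median of 0.66. The 5 lay at Agxt2 and at the neighbours Sds and Sdsl, with none at Agxt. Agxt2 encodes a mitochondrial alanine-glyoxylate aminotransferase. At its start, chr15:10357144-10360487, the folds were 18.9 and 18.2 (WT), 21.9 and 22.6 (Cpt2 KO), 30.5 and 28.1 (Ppara KO), and 33.1 and 42.2 (DKO). The 4 Ppara-null livers were all above the 4 others. The difference was 0.67 (SE 0.13, adjusted p 0.00784). A second Agxt2 interval inside the gene, chr15:10374644-10376485, read 10.4 and 6.83 (WT), 10.3 and 10.7 (Cpt2 KO), 22.6 and 19.2 (Ppara KO), and 13.9 and 20.2 (DKO). It was higher by 0.96 (SE 0.20, adjusted p 0.0131), and again the groups did not overlap. The third, chr15:10376890-10382260, was higher by 0.72 (adjusted p 0.0189) with folds of 12 to 19.1 against 16.6 to 34.7. The gene mean of Agxt2 was higher by 0.73 (SE 0.13, adjusted p 0.00976).

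Sds, serine dehydratase, and its neighbour Sdsl, a serine dehydratase-like enzyme, shared their called intervals, so they are not independent. The interval in Sds, chr5:120475407-120481593, had folds of 16.1 and 14.5 (WT), 14.3 and 12.5 (Cpt2 KO), 19.0 and 22.6 (Ppara KO), and 37.4 and 26.0 (DKO). Both Ppara-null genotypes were above both intact ones. Both DKO livers were highest as raw folds, but DKO and Ppara KO overlapped after centring. The difference was 0.80 (SE 0.17, adjusted p 0.0139). In Sdsl, chr5:120465822-120475324, the folds were 15.3 and 15.4 (WT), 15.4 and 14.1 (Cpt2 KO), 23.1 and 21.0 (Ppara KO), and 25.8 and 26.8 (DKO), a difference of 0.65 (SE 0.14, adjusted p 0.0149). Agxt, the peroxisomal aminotransferase for glyoxylate, had a difference of 0.58 (SE 0.19) that missed the threshold (adjusted p 0.077).

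Among the genes for transamination and glutamate, 2 of 12 intervals were higher and 1 lower. Got1, the cytosolic aspartate aminotransferase, had the largest increase of a single interval, although its gene mean was not called (0.34, adjusted p 0.183). At its start, chr19:43520423-43527423, the folds were 13.4 and 20.2 (WT), 23.7 and 12.2 (Cpt2 KO), 31.2 and 35.5 (Ppara KO), and 36.1 and 32.6 (DKO). The Ppara-intact livers were spread but all lay below the Ppara-null ones. Got1 was higher by 0.98 (SE 0.18, adjusted p 0.00568). Its mitochondrial counterpart Got2 had a difference of -0.35 (SE 0.22, adjusted p 0.379). Glud1, the mitochondrial glutamate dehydrogenase that frees ammonia from glutamate, was lower. At its start, chr14:34310691-34312725, the folds were 21.7 and 27.4 (WT), 14.2 and 12.3 (Cpt2 KO), 10.8 and 11.3 (Ppara KO), and 9.83 and 13.0 (DKO). WT lay above every knockout liver, and Cpt2 KO overlapped the Ppara-null livers. The difference for Ppara was -0.71 (SE 0.15, adjusted p 0.0139), and Glud1 was lower in the Cpt2 comparison as well.

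Prodh2, which breaks down hydroxyproline, had the lowest adjusted p and the largest difference of the 82 intervals in this comparison. At its start, chr7:30492843-30495611, the folds were 29.3 and 28.7 (WT), 21.5 and 18.3 (Cpt2 KO), 10.7 and 17.1 (Ppara KO), and 9.75 and 9.81 (DKO). Every Ppara-null liver was below every Ppara-intact one. The difference was -1.09 (SE 0.16, adjusted p 0.00206). Its relative Prodh, the proline dehydrogenase, had a difference of 0.04 at its start (SE 0.16, adjusted p 0.923). Oat, ornithine aminotransferase, had a difference of 0.33 (SE 0.23, adjusted p 0.43), with livers spread from 6.29 to 23.3.

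In the urea cycle, 1 of 16 intervals was called. Cps1 encodes carbamoyl phosphate synthetase, which fixes ammonia in the first step. The called interval, chr1:67111131-67119593, had its midpoint 7064 bases from the gene. Its folds were 17.8 and 16.6 (WT), 32.7 and 25.7 (Cpt2 KO), 26.8 and 28.0 (Ppara KO), and 36 and 38.5 (DKO). WT was lowest and DKO highest, with the single knockouts between. The difference was 0.49 (SE 0.12, adjusted p 0.0304), and the groups overlapped as raw folds but not after centring. The interval over the first part of the Cps1 gene body, chr1:67121410-67129577, was not called (0.37, SE 0.22, adjusted p 0.342). Slc25a15, the mitochondrial ornithine carrier, had folds of 20.8 and 28.1 (WT), 36.7 and 31.9 (Cpt2 KO), 27.7 and 35.1 (Ppara KO), and 39 and 47.8 (DKO). Its difference of 0.32 missed the threshold (SE 0.11, adjusted p 0.0949). The strongest intervals of Otc, Ass1, Asl and Arg1, which carry the cycle from ornithine to urea, had differences of 0.21, 0.19, 0.04 and 0.04, none called. Nags and Slc25a13 went the other way by gene mean, and neither was called. Their differences were -0.52 (SE 0.14, adjusted p 0.0645) and -0.22 (SE 0.13, adjusted p 0.379).

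The remaining calls for Ppara were at Tdo2, Bckdha and Gls2. Tdo2, tryptophan dioxygenase, the first step of tryptophan breakdown, had folds at its start (chr3:81971051-81977026) of 15.7 and 12.2 (WT), 19.7 and 13.3 (Cpt2 KO), 17.9 and 21.2 (Ppara KO), and 29.4 and 26.2 (DKO). The difference was 0.61 (SE 0.17, adjusted p 0.047). Both DKO livers were above all others as raw folds but not after centring. Bckdha, a subunit of the branched-chain ketoacid dehydrogenase, had folds inside the gene (chr7:25648822-25650679) of 9 and 11.8 (WT), 5.88 and 6.58 (Cpt2 KO), 3.43 and 6.67 (Ppara KO), and 5 and 3.71 (DKO). The difference was -0.85 (SE 0.23, adjusted p 0.0393), and 1 Ppara KO liver lay just above both Cpt2 KO livers. Gls2, the liver glutaminase, had an interval at chr10:128202202-128212572 that also held the start of Spryd4. Its folds were 11.3 and 12 (WT), 18.6 and 13.5 (Cpt2 KO), 12.7 and 16.9 (Ppara KO), and 26.3 and 29.3 (DKO). The difference was 0.54 (SE 0.15, adjusted p 0.0467), with the single knockouts overlapping. Of the tyrosine, histidine and methionine groups, with 7, 12 and 9 tested intervals, none was called.

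Calls for Ppara depended in part on scaling. With quantile normalization 12 intervals were higher, with Slc25a15, Agxt and Kmo added, and the same 3 were lower. The share over all intervals in that setting is not given here. Without centring, 6 intervals were higher and 3 lower, and Cps1, Gls2 and Tdo2 were not among them, against 3% and 3.01% of all intervals. With the shortest peak width of each library as a covariate, 5 were higher (Got1, Sds, Sdsl and Agxt2) and 2 lower (Glud1 and Prodh2), against 1.58% and 2.32% of all. Summed H3K27ac near Kupffer cell genes, as raw folds without centring, was 24.3 to 98.2 in Ppara-intact and 50.4 to 249 in Ppara-null livers. Its part in these results was not tested.

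**Figure D1:**
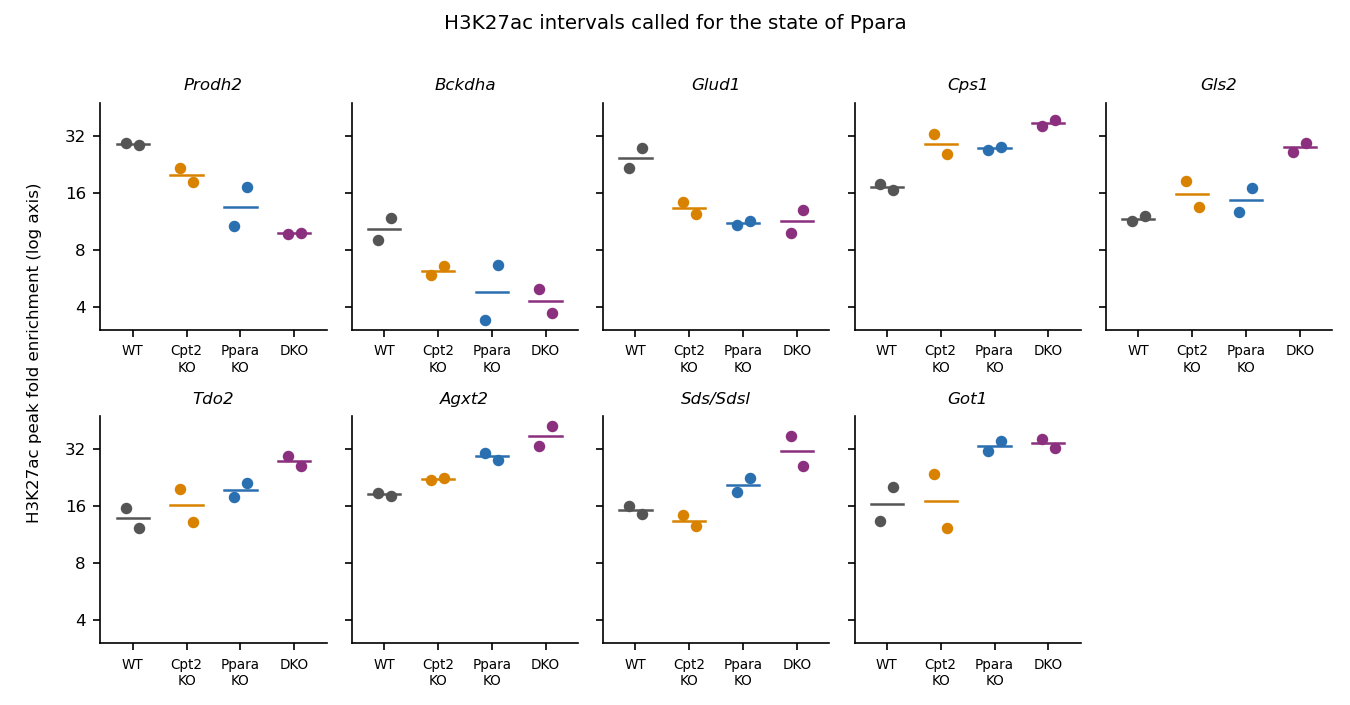
H3K27ac peak fold (log axis) in each liver in 9 panels, by genotype; each panel is the interval of lowest adjusted p of a gene called for Ppara, with Sds and Sdsl sharing one. Points are livers and bars their geometric means. Got1, Agxt2 and Sds/Sdsl sit higher in Ppara KO and DKO, and Prodh2 and Glud1 sit lower than in WT.

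The second comparison asked which genes differed with the state of Cpt2, setting the 4 Cpt2-null livers (Cpt2 KO and DKO) against the 4 Cpt2-intact ones (WT and Ppara KO). Relative to the library median, H3K27ac was lower without Cpt2 at 16 of the 82 intervals and higher at 1, the start of Hgd. Over all tested intervals the background was 12.3% called, 4.9% higher and 7.38% lower. The median difference was -0.12 over the 82 and -0.01 over all, and 32 of 82 were positive. By gene mean, 7 of 39 genes were lower and none higher (Agxt, Bhmt, Cbs, Ftcd, Haao, Nags and Prodh2), against 9.57% of all genes called, 4.15% higher and 5.42% lower. The split of higher and lower calls depended on centring. Without centring, the median of all intervals was 0.25 higher in Cpt2-null livers, and near the listed genes 12 intervals were higher and 2 lower, those at Haao and Ftcd, against 19.2% of all intervals higher and 2.36% lower. Quantile normalization gave 1 higher and 12 lower, with all 12 among the 16, against 5.56% higher and 6.1% lower. Leaving out the centring moves every difference by the same amount. The 16 lower intervals then ran from -0.81 to -0.30, which is no separate check of their sign. With the shortest peak width as a covariate, which nearly coincides with the state of Cpt2, 0 were called by limma, and 9 had an unadjusted p under 0.05.

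Leaving out 1 library moved the count of 17 to 8 without WT replicate 2, to 5 and 6 without Cpt2 KO replicates 1 and 2, to 8 without either Ppara KO replicate, and to 9 and 10 without DKO replicates 1 and 2. Marker sums below add raw folds without centring, with 0 where a library had no call, so they include the generally higher folds of Cpt2-null libraries. Kupffer, stellate and endothelial marker sums were higher in both Cpt2-null genotypes than in both Cpt2-intact ones. The Kupffer sum was also higher without Ppara in either Cpt2 state. The summed H3K27ac fold near 7 Kupffer cell genes (2 with an interval in all 8 libraries, Marco with no interval) was 24.3 to 32.4 (WT), 97.7 to 98.2 (Cpt2 KO), 50.4 to 58.2 (Ppara KO) and 188 to 249 (DKO). For 6 stellate cell genes (2 with an interval in all 8) it was 30.6 to 48.4, 147 to 156, 43.4 to 55.5 and 105 to 126 in the same order. For 6 endothelial genes (6 with an interval in all 8) it was 276 to 324, 503 to 584, 355 to 488 and 524 to 560. After centring, the endothelial gene means for Cpt2 were positive at Stab2, Pecam1, Kdr, Clec4g and Tek and negative at Lyve1 (-0.35). The sum for 6 leukocyte genes (2 with an interval in all 8, Cd3e, Ms4a1 and S100a8 with none) was 41.3 to 63.6, 56.3 to 63.3, 42.1 to 42.9 and 76.6 to 82.3. For 6 cholangiocyte genes, of which Krt19, Krt7, Epcam, Spp1 and Cftr had no interval, it was 20.3 to 31.9, 0, 5.81 to 14.4 and 13.2 to 16.8. The hepatocyte sum (9 of 10 genes with an interval in all 8, Tf with none) was 434 to 475 (WT), 324 to 341 (Cpt2 KO), 416 to 498 (Ppara KO) and 446 to 515 (DKO). The part of these shifts in the results for either gene was not tested.

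Histidine breakdown held 4 of the 16 lower intervals among its 12, 1 of which was positive, with a median of -0.36. An interval inside Amdhd1, the imidazolonepropionase of the pathway, was also counted for Hal, histidine ammonia-lyase. The midpoint of this interval lay 8836 bases from Hal. At chr10:93524882-93526314 its folds were 15.8 and 15.6 (WT), 14.9 and 11.2 (Cpt2 KO), 20.6 and 18.3 (Ppara KO), and 12.5 and 12.5 (DKO). All Cpt2-null livers were below all Cpt2-intact ones, and the difference was -0.72 (SE 0.16, adjusted p 0.0155). A second Amdhd1 interval, with its midpoint 2924 bases from the gene, differed by -0.62 (adjusted p 0.0288). Its folds were low in Cpt2 KO (9.80 and 7.26) and not in DKO (15.8 and 14.3). Near Ftcd, which passes the formimino group of histidine to folate, chr10:76569270-76571479 read 14.4 and 16.2 (WT), 7.63 and 9.34 (Cpt2 KO), 8.57 and 10.3 (Ppara KO), and 6.62 and 8 (DKO). WT stood above the other 3 genotypes. The difference was -0.88 (SE 0.18, adjusted p 0.011), while the Ftcd start interval differed by -0.08 (adjusted p 0.727). The interval called for Uroc1, urocanate hydratase, had its midpoint 5524 bases from that gene and held the start of Zxdc (-0.81, SE 0.21, adjusted p 0.0251).

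Haao, which makes the quinolinate precursor from tryptophan, was lower at both of its intervals. Inside the gene, chr17:83834693-83839593, the folds were 9.45 and 21.4 (WT), 6.01 and 6.10 (Cpt2 KO), 10.7 and 11.6 (Ppara KO), and 8.73 and 8.40 (DKO). The WT livers were far apart, yet every Cpt2-null liver was below every Cpt2-intact one. The difference was -1.07 (SE 0.22, adjusted p 0.0108), the largest of the 82 in this comparison. At the Haao start, chr17:83839931-83848729, the folds were 25.6 and 29.9 (WT), 14.0 and 14.3 (Cpt2 KO), 20.9 and 12.9 (Ppara KO), and 18.0 and 23.3 (DKO). The difference was -0.59 (SE 0.18, adjusted p 0.0441). It was -1.19 between Cpt2 KO and WT (adjusted p 0.0116) and 0.01 between DKO and Ppara KO (adjusted p 0.989). Kmo, Kynu and Tdo2 had no interval called for Cpt2.

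For methionine and sulfur amino acids, 2 of 9 intervals were lower and 2 of 9 positive, with a median of -0.45. Bhmt, which remethylates homocysteine with betaine, had folds at its start (chr13:93635454-93642296) of 19.2 and 17.3 (WT), 13.5 and 11.6 (Cpt2 KO), 12.1 and 13.7 (Ppara KO), and 7.75 and 12 (DKO). WT was highest, and the difference was -0.75 (SE 0.17, adjusted p 0.0179). Cbs, cystathionine beta-synthase, had an interval inside the gene (chr17:31631451-31633540) with folds of 7.52 and 14.6 (WT), 4.99 and 5.10 (Cpt2 KO), 9.43 and 11.2 (Ppara KO), and 9.05 and 12 (DKO). Cpt2 KO was low and DKO was not. The difference was -0.78 (SE 0.20, adjusted p 0.0258), and at the Cbs start it was -0.11 (adjusted p 0.682).

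The urea cycle list had 2 lower intervals of 16. Nags makes N-acetylglutamate, the activator that Cps1 needs. At its start, chr11:102142047-102149056, the folds were 21.6 and 27.7 (WT), 13.0 and 15.2 (Cpt2 KO), 14.0 and 13.1 (Ppara KO), and 10.3 and 16.2 (DKO). WT stood above the 3 knockout genotypes, which overlapped one another. The difference was -0.70 (SE 0.17, adjusted p 0.0202). Slc25a13, the aspartate-glutamate carrier citrin, was lower at 1 of 5 intervals, chr6:6183104-6184419 (-0.68, SE 0.20, adjusted p 0.0432). Its strongest interval, chr6:6191622-6213471, had folds of 29.2 to 40.7 and a difference of -0.04.

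Several cycle enzymes were not called in either comparison. Otc, ornithine transcarbamylase, had folds of 16.7 and 13.0 (WT), 12.4 and 11.3 (Cpt2 KO), 15.4 and 21.3 (Ppara KO), and 17.9 and 10.1 (DKO) (Cpt2 difference -0.64, SE 0.22, adjusted p 0.0702). Ass1, argininosuccinate synthase, had 18.8 and 18.2 (WT), 30.2 and 28.0 (Cpt2 KO), 20.6 and 24.0 (Ppara KO), and 28.2 and 37.9 (DKO) at its start (0.34, SE 0.12, adjusted p 0.0864). The other Ass1 interval, chr2:31464725-31467658, differed by -0.50 for Cpt2 (adjusted p 0.0806) and 0.56 for Ppara (adjusted p 0.0722), neither called. Arg1, arginase, ranged from 9.99 to 33.8 with WT replicates at 20.4 and 9.99, so its difference of 0.42 (SE 0.24, adjusted p 0.259) was within the spread. Asl, argininosuccinate lyase, had folds from 20.2 to 37.0 and a difference of 0.12 (SE 0.15, adjusted p 0.613).

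Other called genes were spread over the list. Hgd, homogentisate dioxygenase of tyrosine breakdown, was the one higher interval, at its start, chr16:37577279-37585697. Its folds were 17.1 and 15.4 (WT), 34.2 and 28.0 (Cpt2 KO), 17.9 and 17.4 (Ppara KO), and 35.8 and 26.8 (DKO). Both Cpt2-null genotypes were above both Cpt2-intact ones (0.60, SE 0.16, adjusted p 0.0264), and this call was also made without centring (0.87, adjusted p 0.00227). Agxt was lower by the same test (-0.62, SE 0.19, adjusted p 0.0472), with folds of 16.7 and 20.6 (WT), 12.3 and 6.20 (Cpt2 KO), 16.2 and 17.9 (Ppara KO), and 18.9 and 26.3 (DKO). The Cpt2 KO livers alone were low at Agxt. Prodh2 and Glud1, already lower without Ppara, differed by -0.77 (adjusted p 0.0123) and -0.69 (adjusted p 0.0151) for Cpt2. Prodh (-0.56, adjusted p 0.0353), Gls2 at chr10:128194595-128201949 (-0.62, adjusted p 0.0351) and Bckdha at chr7:25653038-25656926 (-0.68, adjusted p 0.0361) completed the calls.

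**Figure D2:**
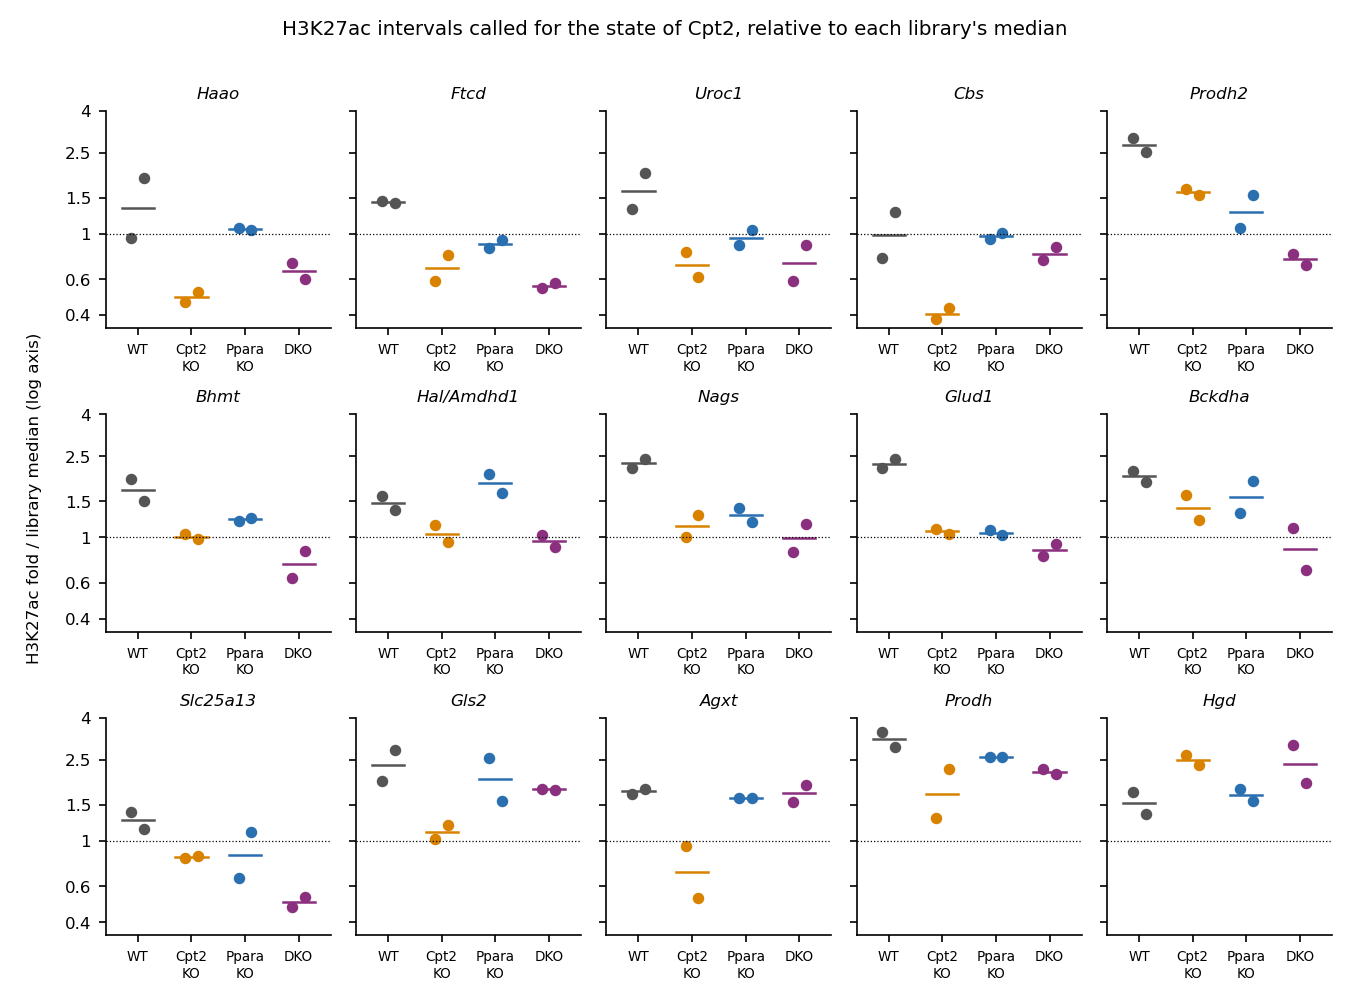
H3K27ac fold divided by the library's median (log axis) in each liver, in 15 panels, each the interval of lowest adjusted p of a gene called for Cpt2, with Hal and Amdhd1 sharing one. Points are livers and bars their geometric means. Hgd is the one panel where Cpt2 KO and DKO sit higher, and in the other 14 they sit lower on balance.

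Set side by side, the gene means gave 29 of 39 genes called for neither gene, 3 for Ppara (Agxt2, Sds and Sdsl), 6 for Cpt2 and 1, Prodh2, for both. By interval, 22 genes had a call in one comparison or the other and 17 had none. Those 17 were Aldh4a1, Arg1, Asl, Ass1, Bckdhb, Cth, Fah, Gnmt, Got2, Gpt2, Hpd, Kmo, Kynu, Mat1a, Oat, Otc and Slc25a15. A missed threshold with 2 livers a genotype does not show that these genes were alike.

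**Figure D3:**
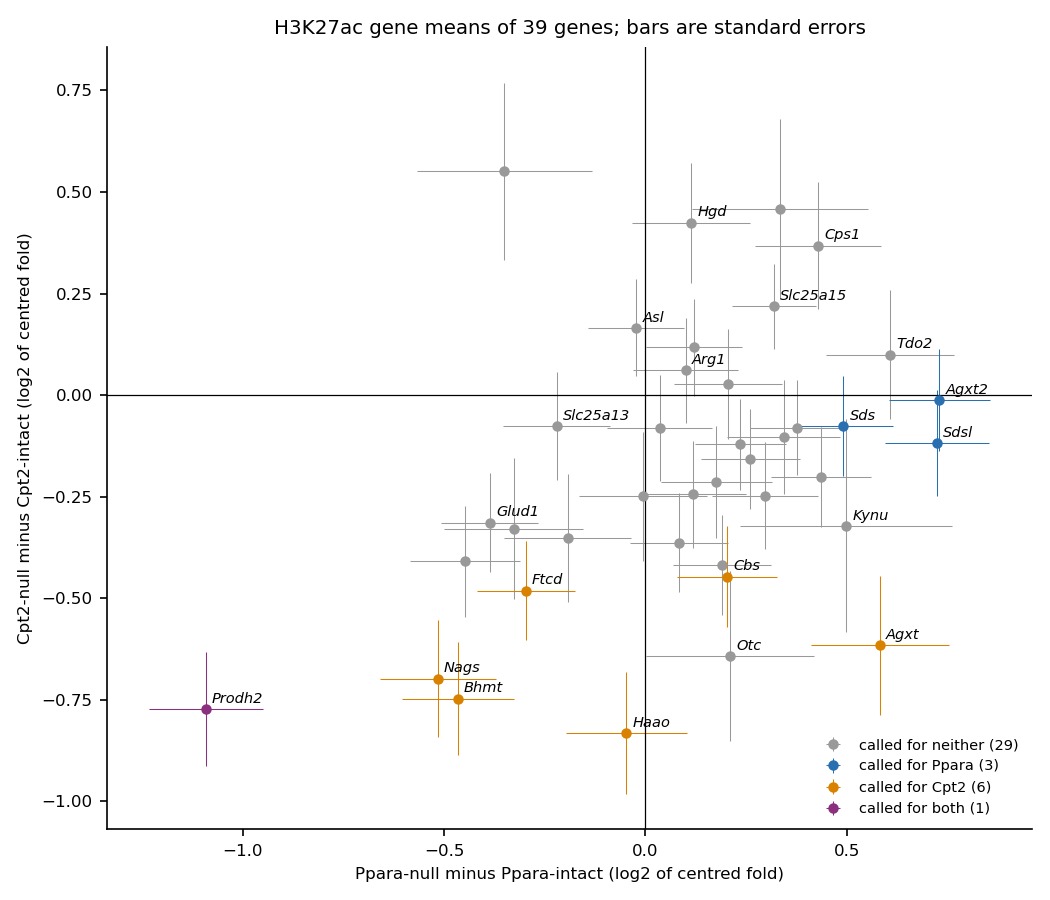
H3K27ac difference for Ppara (x axis) and for Cpt2 (y axis), in log2 of the centred fold, for 39 gene means with standard errors as bars. Prodh2 lies lowest on the x axis at -1.09, and Agxt2 and Sdsl lie highest at 0.73 and 0.72.

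Pairs of genotypes share livers, so they are given side by side. Against WT, Cpt2 KO had 1 higher interval (Got2) and 13 lower at 12 genes, with 13.5% of all intervals called, 5.82% higher and 7.69% lower. Ppara KO against WT had 4 higher (at Agxt2, Cps1 and Got1) and 2 lower (Glud1 and Prodh2), with 6.42% of all called, 2.83% higher and 3.59% lower. DKO against WT had 8 higher and 10 lower, with 20.2% called, 8.62% higher and 11.5% lower. Prodh2 fell by 1.86 in DKO against WT (adjusted p 0.00106), Bckdha by 1.55 (adjusted p 0.00664) and Glud1 by 1.41 (adjusted p 0.00184). Slc25a15 was higher in DKO than WT by 0.54 (adjusted p 0.0279) and Ass1 by 0.52 (adjusted p 0.0495). DKO against Cpt2 KO had 2 higher and 1 lower, with 2.24% called, 0.596% higher and 1.64% lower. DKO against Ppara KO had 0 called by limma (14 with an unadjusted p under 0.05), with 0.00547% of all called. The interaction, whether the effect of one deletion depends on the other, also had 0 called and 14 with an unadjusted p under 0.05, with 0.00547% of all called. The interaction at Agxt was 1.39 (p 0.0025 before and 0.138 after adjustment). Without WT replicate 2, Cpt2 KO against WT had 1 call, Ppara KO against WT had 0 and DKO against WT had 11. Without Cpt2 KO replicates 1 and 2, the first had 1 and 9. Without Ppara KO replicates 1 and 2, the second had 0 and 1, and without DKO replicates 1 and 2, the last had 9 and 11.

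H3K4me1 gave no call near the listed genes. Of 112 intervals limma called 0 for Ppara and 0 for Cpt2, with 16 and 10 at an unadjusted p under 0.05, against 0.128% and 0% of all 19526 called. DKO against WT also had 0, with 26 unadjusted and 0.133% of all called. By gene mean limma called 0 of 37 genes for Ppara or Cpt2, against 0.0122% and 0% of all genes. Calls did appear for Ppara without Cpt2 KO replicate 1, and for DKO against WT without either Cpt2 KO replicate. The share over all intervals in those fits is not given here, so a shift of all intervals cannot be told apart. The median Ppara difference was 0.10 near the listed genes and -0.01 over all, with 67 of 112 positive. Serine and glyoxylate genes had 11 of 13 positive and a median of 0.41. With the shortest peak width as a covariate, that median was 0.25 and the median over the 112 was 0.040, and unadjusted calls fell from 5 to 1 and from 16 to 5. In Agxt2, chr15:10378803-10381952 read 6.51 and 4.66 (WT), 10.6 and 4.86 (Cpt2 KO), 7 and 13.4 (Ppara KO), and 13.7 and 13.0 (DKO) (0.85, adjusted p 0.18). Near Slc25a15, chr8:22400941-22403896 read 5.33 and 5.77, 10.9 and 5.16, 8.51 and 14.9, and 12.6 and 16.7 in the same order (0.99, SE 0.25, adjusted p 0.108). The high livers at both were Cpt2 KO replicate 1, Ppara KO replicate 2 and both DKO, the same 4 libraries that covered fewer bases. With the shortest peak width as a covariate the difference was 0.33 at Agxt2 (adjusted p 0.840) and 0.42 at Slc25a15 (adjusted p 0.721). Oat, at chr7:132576497-132578270, read 5.60 and 4.43, 5.11 and 6.35, 7.69 and 6.86, and 9.40 and 8.89, with no overlap between Ppara-null and Ppara-intact livers (0.61, adjusted p 0.19). With the covariate it was 0.78 at Oat (adjusted p 0.353). Across 36 genes with both marks, the gene means had Pearson's r of 0.60 and Spearman's rho of 0.55 for Ppara, with 29 of the same sign. For Cpt2 r was 0.50 and rho 0.45, with 22 of the same sign. These describe genes in the same 8 animals and carry no test.

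**Figure D4:**
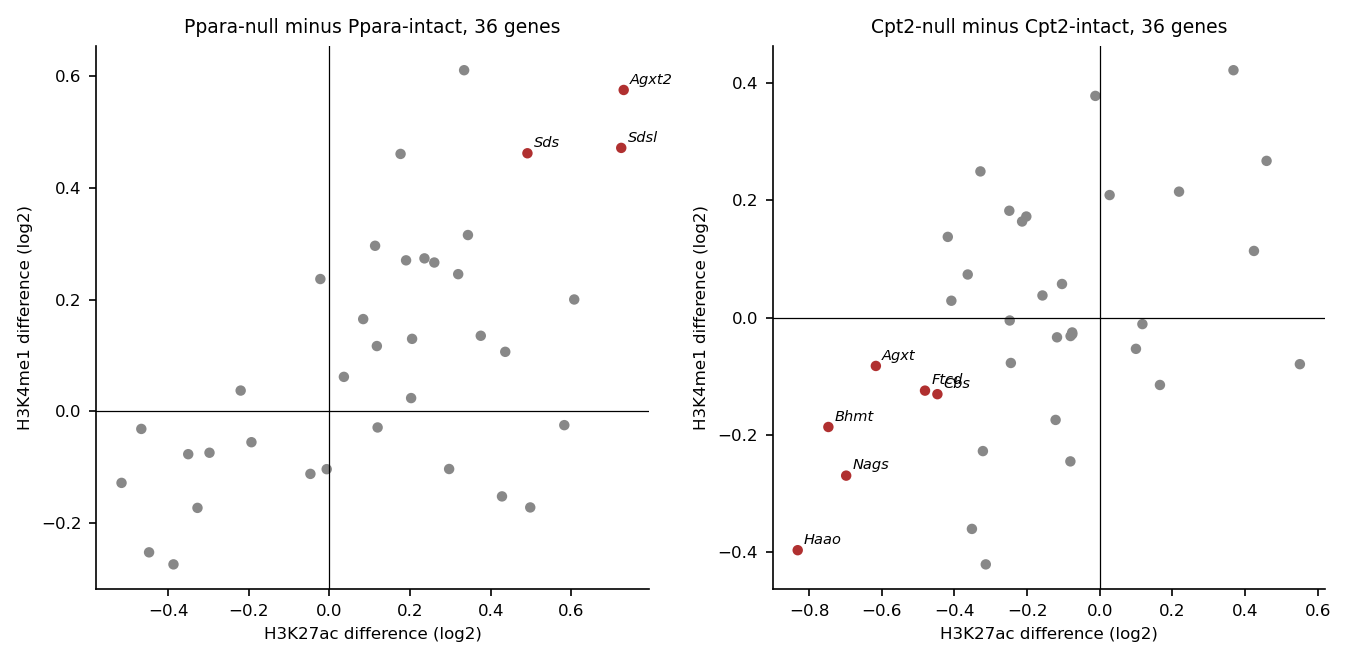
H3K27ac difference (x axis) against H3K4me1 difference (y axis), in log2, for 36 genes, for Ppara in one panel and Cpt2 in the other; red points are genes whose H3K27ac gene mean was called. The points slope upward in both panels, with r of 0.60 and 0.50.

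Peaks present in one state and missing in the other were counted separately, as called in at least 3 of 4 livers of one state and in 0 of 4 of the other. For Ppara, 8 of 312 H3K27ac intervals near the listed genes (2.56%) were gained without Ppara, against 1.63% of all 65776, and 2 (0.641%) were lost, against 1.73%. For Cpt2, 3 (0.962%) were gained against 4.5% of all, and 12 (3.85%) were lost against 2.49%. For H3K4me1, 13 of 431 (3.02%) were gained without Ppara, against 1.96% of all 103014, and 2 (0.464%) were lost against 2.84%. The gained H3K4me1 intervals at Bckdhb, Cps1 and Glud1, and some at Gpt2, were called in Ppara KO replicate 2 and both DKO libraries alone. Those libraries are among the ones that covered fewer bases. The Cpt2 counts for H3K4me1 were 4 gained (0.928% against 1.41%) and 8 lost (1.86% against 1.3%). At Agxt2, chr15:10386274-10388236 carried H3K27ac in the 4 Ppara-null livers alone, at 13.1 and 14.2 (Ppara KO) and 11.0 and 18.2 (DKO). H3K4me1 was called at chr15:10386394-10387854 in the same 4 livers, with 5.40, 9.17, 9.40 and 9.71. Near Arg1, chr10:24912028-24913199 had an H3K27ac call in the same 4, with 5.29, 6.04, 5.96 and 9.71. Near Gpt, chr15:76698202-76698811 was called in the 4 Cpt2-null livers, with 4.81 and 4.95 in Cpt2 KO and 4.77 and 8.83 in DKO. Glud1 lost chr14:34349686-34351570 without Cpt2, where WT had 7.55 and 11.1 and Ppara KO 6.35 and 6.58.

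Gpt2, the mitochondrial alanine aminotransferase, held the most intervals gained without Ppara over both marks, 2 for H3K27ac and 7 for H3K4me1. Agxt2 also gained 2 for H3K27ac. Of the 20 H3K27ac intervals of Gpt2, the livers had calls at 4 and 2 (WT), 5 and 5 (Cpt2 KO), 12 and 10 (Ppara KO) and 11 and 12 (DKO). Each Ppara-null liver had more called intervals than each Ppara-intact one, while the Gpt2 start interval differed by -0.09 (adjusted p 0.701). For H3K4me1 the calls were 9 and 7, 12 and 12, 13 and 17, and 19 and 19 of 22. Oat had 1 and 1, 1 and 3, 3 and 2, and 4 and 5 of 5 H3K27ac intervals called in the same order. Cps1 had 2 and 2, 6 and 2, 3 and 5, and 17 and 2 of 20, so that DKO replicate 1 stood alone. For H3K4me1, Cps1 had 4 and 1, 18 and 2, 1 and 17, and 14 and 14 of 28, high in the same 4 libraries that covered fewer bases.

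**Figure D5:**
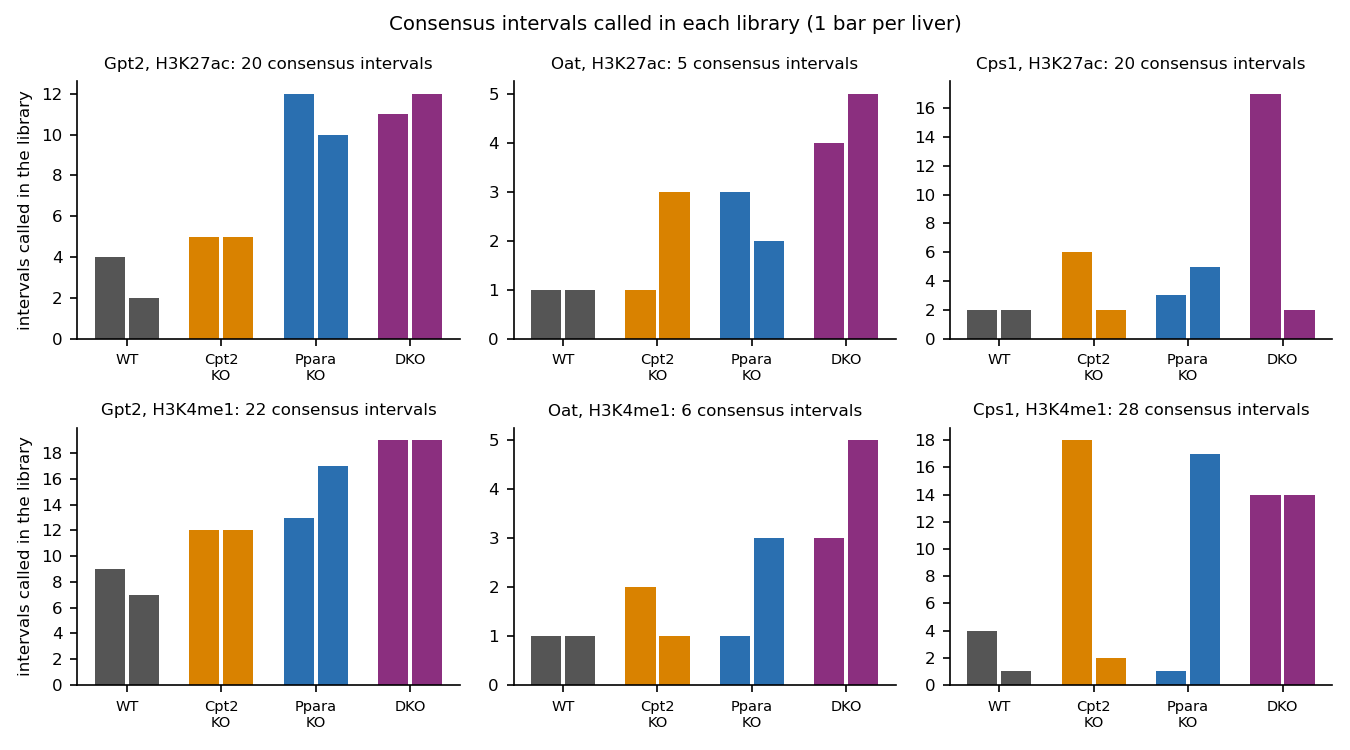
Number of consensus intervals called in each liver (1 bar per liver, by genotype) for Gpt2, Oat and Cps1, H3K27ac and H3K4me1 in separate panels. Gpt2 has 10 to 12 H3K27ac calls in Ppara-null livers and 2 to 5 in Ppara-intact ones, and Cps1 H3K4me1 calls are high in 4 livers of 3 genotypes.

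H3K9ac was measured in 1 liver a group, so its differences have no replicate check. All 40 genes had an H3K9ac interval in WT and 39 in Cpt2 KO, with Otc the exception. Near the list there were 375 intervals in WT and 252 in Cpt2 KO, spanning 429 and 231 kb. The whole libraries held 39287 and 41122 intervals, which covered 37.5 and 37.4 Mb, so the share near the list was 0.955% and 0.613%. Cps1 had 28 in WT and 6 in Cpt2 KO, Bhmt 13 and 2, Hgd 10 and 1, and Haao 13 and 4. By number of intervals 26 genes had fewer in Cpt2 KO, 5 had as many and 9 had more (Asl, Nags, Got1, Gpt, Gpt2, Agxt2, Uroc1, Mat1a and Gnmt). By bases covered 39 genes had less in Cpt2 KO, and Gpt alone had more. Mat1a, for example, had 14 intervals in WT and 17 in Cpt2 KO, over 23436 and 14688 bases. Of the 16 H3K27ac intervals lower without Cpt2, 16 overlapped H3K9ac in WT and 13 in Cpt2 KO. Of the 65 not called, 56 and 50 did.

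A second list of 78 genes of amino acid metabolism and transport was used for comparison, with 157 tested H3K27ac intervals. For Ppara 7 were higher (at Tat, Acmsd, Aass, Cdo1 and Slc7a2) and 4 lower (at Aldh7a1, Grhpr, Slc1a2 and Ddah1). Together these were 7.01% of the 157, near the 7.34% of all intervals called (3.19% higher and 4.15% lower). For Cpt2 2 were higher and 15 lower, beside the 4.9% and 7.38% of all intervals given above. Without centring 16 were higher and 6 lower, beside 19.2% and 2.36% of all. By gene mean, Gldc, the glycine cleavage decarboxylase, differed by -1.03 for Cpt2 (adjusted p 0.0110), and Aspg by -1.26 (adjusted p 0.00405). Slc1a2, a glutamate transporter of perivenous hepatocytes, differed by -0.90 for Ppara (adjusted p 0.0177). H3K4me1 gave 0 calls by limma over 197 intervals of these genes.

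Listed genes known as periportal were compared with other zonal genes by their gene means. Of 10 listed periportal genes, 8 were positive for Ppara with a median of 0.29, and 1, Sds, was called. Of 6 other periportal genes, Cdh1, the epithelial cadherin, was higher by 0.97 (adjusted p 0.00271), 3 of 6 were positive and the median was 0.12. Of 7 perivenous genes outside the list with a tested interval, 0 were positive, the median was -0.22, and Slc1a2 was lower. Oat, the one listed perivenous gene, was positive and not called (0.33, adjusted p 0.42). Glul, the perivenous glutamine synthetase, differed by -0.56 (adjusted p 0.169). For Cpt2 the medians were -0.14, -0.34 and -0.14, and Agxt was the one listed periportal gene called lower.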

How the data were processed

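Peaks of H3K27ac, H3K4me1 and H3K9ac were used from 18 of 20 samples; the 2 input samples were not analysed on their own. BWA, MACS2 2.1.0 and mm10 are named in the submitters' processing notes; which control each library was set against is not given in the sources used here. The deposited values are the fold enrichment (a ratio) of each peak, as the authors' peak caller wrote it, per library. Read depth is unknown, so no counting interval can be given. For each region of the authors' consensus list, the highest overlapping peak of each library was taken. Regions called in all 8 libraries of a mark were tested as log2 fold, centred on the library median, with limma 3.58.1 in R 4.3.3, using 4 genotype means, and Benjamini-Hochberg adjustment over all regions or all gene means (threshold 0.05). The procedure was tested on simulated data. A region belonged to a gene if its midpoint lay in the gene or within 10000 bases of it. The members and lists were chosen with earlier results of these data known. Genes named with values are those with an interval or gene mean called for Ppara or Cpt2, the urea cycle genes, and genes with no interval called in all 8 libraries. A called gene is shown by its called interval of lowest adjusted p, and an uncalled one by its strongest interval. Other intervals and genes given with values were chosen after these were seen. The peak names give 8 animal numbers, so p-values measure the spread between these animals. Promoter sequences came from RefSeq (GRCm38.p6), with 30 of 40 genes matched. Alternatives were other scalings, a width covariate, filled values for uncalled libraries, other call minimums, a replicate term, and leaving out each library.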

Additional observations from a re-analysis of the deposited data

How the results depend on the processing

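The Ppara calls at Prodh2, Got1 and the Agxt2 start, and the gene means of Agxt2, Sdsl and Prodh2, passed the threshold under all 13 alternatives run. Filling uncalled libraries with the lowest fold raised the tested H3K27ac intervals near the listed genes to 128. Of these, 19 were called for Ppara and 29 for Cpt2, and versus WT 26 (Cpt2 KO), 10 (Ppara KO) and 35 (DKO). Filling also gave 7 and 13 of 40 gene means for Ppara and Cpt2, and 1 of 231 H3K4me1 intervals for Ppara. Shares over all features with filled values are not given here, so these counts do not set the listed genes apart. With the shortest peak width as a covariate, 7 intervals were called for Ppara, and limma called 0 for Cpt2 (9 with an unadjusted p under 0.05). Each of the 3 pairs with WT then had 0 calls (12, 19 and 8 unadjusted for Cpt2 KO, Ppara KO and DKO), and it called 0 gene means for Cpt2 (3 unadjusted). Quantile normalization gave 8 gene means for Ppara. The cause of these changes was not tested.

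Requiring 4 of 4 livers against 0 of 4 left 4 and 6 H3K27ac intervals for Ppara and Cpt2, and 5 and 0 for H3K4me1. Signs turned with the width covariate for Ppara at Asl (-0.015) and Arg1 (-0.22), and for Cpt2 at Ass1 (-0.11), Asl (-0.19), Arg1 (-1.19), Gls2 (0.34) and Haao (0.11). With quantile normalization Slc25a13 turned to 0.033 for Ppara. The shortest H3K27ac peak width nearly coincides with the state of Cpt2, so fits with it, here and above, can hardly separate width from Cpt2. The cause was not tested.

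Leaving out each library gave 4 to 12 H3K27ac calls for Ppara, and 5 to 15 for Cpt2. Versus WT it gave 1 to 17 (Cpt2 KO), 0 to 6 (Ppara KO) and 9 to 22 (DKO). Gene means called ranged from 3 to 8 for Ppara and from 3 to 8 for Cpt2. H3K4me1 calls ranged from 0 to 9 for Ppara, 0 to 1 for Cpt2 and 0 to 5 for DKO against WT. Among uncalled genes, the Ppara difference ranged from -0.27 to 0.35 at Arg1, -0.11 to 0.18 at Asl, -0.043 to 0.46 at Otc and -0.26 to 0.061 at Slc25a13, and the Cpt2 difference from -0.025 to 0.27 at Asl. A genotype left with 1 liver was assumed to vary like the others. Shares over all features in these fits are not given here. Leave-one-out was not run for intervals compared by calls alone.

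The replicate numbers named different animals, and deviations of same-numbered livers correlated from -0.49 to 0.17, so they share only a number. A replicate block gave 12 calls for Ppara, 17 for Cpt2, and versus WT 18 (Cpt2 KO), 8 (Ppara KO) and 20 (DKO). It gave 5 and 8 gene means for Ppara and Cpt2. Shares over all features with the replicate block are not given here.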
